A study of Mus musculus with 7 samples.

Results

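The genes described here are the 49 nuclear genes that were listed by name as subunits of complexes I to IV of the mitochondrial respiratory chain. They were found among the 55487 genes in the files by matching gene identifiers to mouse symbols. All 49 passed the filter on low counts that left 15688 genes for testing. Complex I gave 28 of them, complex II gave 4, complex III gave 7 and complex IV gave 10, with Ndufa4 counted in complex IV because its protein, named for complex I, is a complex IV subunit. They lie on 18 different chromosomes, with up to 6 on the same one. The study is of a knock-in mouse model of vascular Ehlers-Danlos syndrome, an inherited fragility of arteries caused by defects of type III collagen. Thoracic aortas were taken from male mice aged 7 weeks, of strain C57BL/6 by the labels and C57BL/6J by the study's methods, and their RNA was sequenced. Each mouse gave 1 library, and there were 4 wild-type Col3a1+/+ mice and 3 heterozygous knock-in Col3a1+/G182R mice, in which a glycine of the collagen chain is replaced by arginine on 1 allele. The knock-in line came from a pair of targeted embryonic stem cell clones and was bred with hACTB-FLPe mice to remove the selection cassette. The question put to these libraries was what the mutation does to the mRNA content of the aorta.

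Mitochondria make ATP by passing electrons from NADH and succinate along 4 large protein complexes to oxygen, and the protons pumped on the way drive ATP synthase. Complexes I, III and IV are mosaics of subunits encoded in the nucleus and in mitochondrial DNA, whereas complex II, which is also an enzyme of the tricarboxylic acid cycle, is encoded in the nucleus alone. Core subunits carry the flavin, iron-sulfur clusters, hemes and copper that move the electrons, and accessory subunits assemble and stabilise the complexes. Brown fat, which lies around the thoracic aorta of mice, is among the tissues richest in these complexes.

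Promoter sequences were available for 39 of the 49 genes (41 promoters in RefSeq, build GRCm38.p6, from 250 bases before to 50 bases after the start of transcription). They were searched on both strands for short motifs of factors known to act on genes of this kind. The letters GCGCATGC, the core of the site of NRF1, a regulator of respiratory chain genes, were in 5 of the 41 promoters (12.2%) and in 2.712% of all 32851 promoters. The letters AAGATGGC, bound by YY1, were in 7 of 41 (17.1%) and in 2.749% of all. In all 7 they lay on the strand of the gene, with their first base 23 to 39 bases after the start. On that strand and anywhere within the 50 bases after the start, 0.8645% of all promoters held them. The ATG inside these letters was an annotated start codon of the gene in all 7 (GENCODE M21). The ETS letters CCGGAAGT, bound by GABPA, were in 2 of 41 (4.88%, all promoters 3.887%), the GC box GGGCGG in 17 (41.5%, all promoters 35.66%) and the TATA box letters TATAAA in 5 (12.2%, all promoters 13.62%). The windows of 30 bases around the first 2 motifs are printed because these are the features shared by several of the subunits that their names do not give. They run 5′ to 3′ on the strand of the gene, with the motif or its reverse complement in capitals, first for NRF1 and then for YY1.
Cox6a1, chr5:115349102-115349131, minus strand: acaggaacgggGCGCATGCgcgctctcgct
Ndufa6, chr15:82354356-82354385, minus strand: tccgcggtagaGCATGCGCattgcagagcc
Ndufa8, chr2:36049328-36049357, minus strand: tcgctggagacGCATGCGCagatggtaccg
Sdhb, chr4:140961206-140961235, plus strand: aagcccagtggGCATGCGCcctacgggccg
Uqcrc1, chr9:108936667-108936696, plus strand: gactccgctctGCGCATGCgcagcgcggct
Ndufa3, chr7:3617384-3617413, plus strand: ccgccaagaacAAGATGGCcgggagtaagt
Ndufa9, chr6:126849097-126849126, minus strand: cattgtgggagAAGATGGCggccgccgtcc
Ndufb8, chr19:44555393-44555422, minus strand: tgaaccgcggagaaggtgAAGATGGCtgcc
Ndufc1, chr3:51408915-51408944, minus strand: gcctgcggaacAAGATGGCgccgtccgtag
Ndufs4, chr13:114388045-114388074, minus strand: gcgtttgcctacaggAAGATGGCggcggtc
Ndufs6, chr13:73328433-73328462, minus strand: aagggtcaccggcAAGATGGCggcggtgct
Ndufs7, chr10:80249462-80249491, plus strand: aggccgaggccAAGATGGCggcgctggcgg
A match of letters is a description of the sequence and does not show that the factor binds there.

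Total counts ranged from 13693900 to 21634700 in the Col3a1+/+ libraries and from 18820000 to 23953700 in the Col3a1+/G182R ones (exact permutation test over the 7 libraries, two-sided, p = 0.143). Markers of smooth muscle, the main cell of the aortic wall, summed to 24264 to 37104 TPM, a level scaled to transcript length and library size. Smooth muscle mRNA was thus plentiful, as the label of aorta requires, but this does not by itself identify the vessel. Col3a1 itself was at 1465 to 3251 TPM in the Col3a1+/+ and 2105 to 3016 TPM in the Col3a1+/G182R libraries, and gene totals do not tell its alleles apart, so they do not check the genotypes.

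The respiratory chain subunits were among the more abundant mRNAs of the aorta. On the TPM scale, which allows the levels of genes to be compared, the level of the median subunit over the 7 libraries was 224, above that of 96.7% of the genes tested. The highest was Uqcrh, the hinge protein of complex III, at 1018 ± 82.6 TPM in Col3a1+/+ (SD, n = 4) and 979 ± 131 TPM in Col3a1+/G182R (SD, n = 3). The lowest was Ndufs1, the largest core subunit of complex I, at 63.6 ± 14.8 and 78.1 ± 17.2 TPM, so that the mean levels spanned 14.3-fold. After Uqcrh came 4 complex IV subunits, Cox6c, Cox4i1, Ndufa4 and Cox6a1, whose mean levels of 900.4, 889, 846 and 768 TPM lay within the spread of their neighbours in this order. Subunits over 300 TPM numbered 22, and only 4 were under 100 TPM, namely Ndufc2 (97.5), Ndufb4 (96.1), Ndufa9 (84.7) and Ndufs1.

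Complex IV made up 39.9% ± 1.01 of the summed TPM of the 49 genes (SD over 7 libraries). The accessory subunits of complex I gave 17% for the NDUFA and NDUFS series and 16.7% for the NDUFB and NDUFC series, complex III gave 16.8%, the complex I core 5.62% and complex II 4.07%. Over the libraries the share of the complex I core ran from 5.14% to 6.6% and that of complex II from 3.68% to 4.67%. The order of the 49 levels was much the same in every library, with Spearman correlations of 0.933 to 0.993 over the 21 pairs of libraries. These are correlations across genes, which are not independent replicates. The smallest count behind any value was 403 and the largest 9771.

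**Figure D1:**
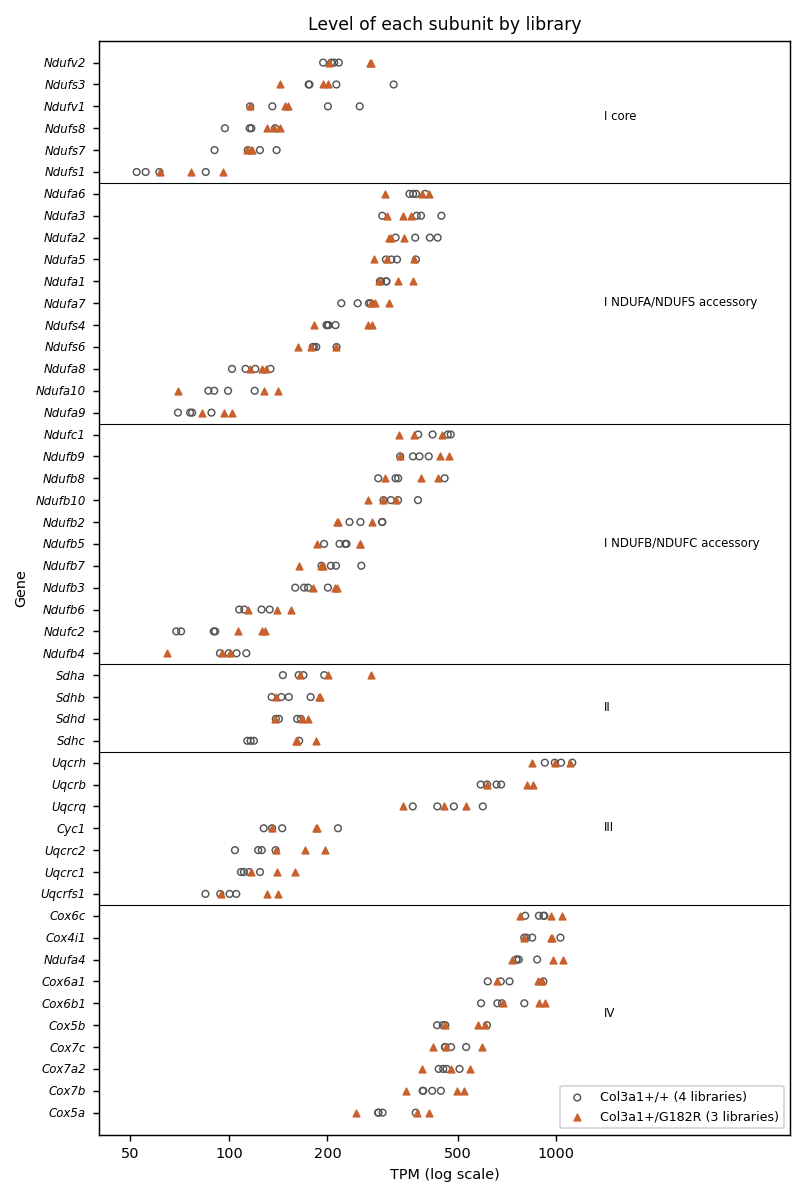
TPM of each of the 49 subunits (log scale) in the 4 Col3a1+/+ libraries (open circles) and the 3 Col3a1+/G182R libraries (triangles), grouped by complex and ordered by mean level. Mean levels run from 69.8 TPM for Ndufs1 to 1001 TPM for Uqcrh, and the symbols of the genotypes are interleaved for most genes.

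Libraries of the same genotype differed in the level of the subunits. Values by library are given from here on in the order of replicate numbers. The summed TPM of the 49 genes was 15249, 14513, 15198 and 17425 in Col3a1+/+ (mean 15596 ± 1264, SD, n = 4) and 13832, 18171 and 17417 in Col3a1+/G182R (mean 16473 ± 2318, SD, n = 3). The lowest and the highest of the 7 sums were both in Col3a1+/G182R, and the genotypes overlapped. In read counts scaled to library size with TMM (CPM), the median subunit differed from its mean over all libraries by -0.13, -0.04, 0.01 and 0.09 on the log2 scale in Col3a1+/+ and by -0.17, 0.24 and 0.04 in Col3a1+/G182R. Of the 49 genes, 33 had their highest CPM in Col3a1+/G182R replicate 2, 9 in Col3a1+/+ replicate 4, 4 in Col3a1+/G182R replicate 3 and 3 in Col3a1+/+ replicate 3. Col3a1+/G182R replicate 1 held the lowest CPM of 22 genes, and replicate 2 of that genotype held none. Most subunits lay on the same side of their mean in Col3a1+/+ replicate 1 (7 of 49 above) and in Col3a1+/G182R replicates 1 (5 above) and 2 (47 above). In the other 4 libraries the subunits were divided, with 18, 27 and 32 above in Col3a1+/+ replicates 2, 3 and 4 and 28 in Col3a1+/G182R replicate 3. The median gene of all those tested deviated by no more than 0.02 in any library.

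**Figure D2:**
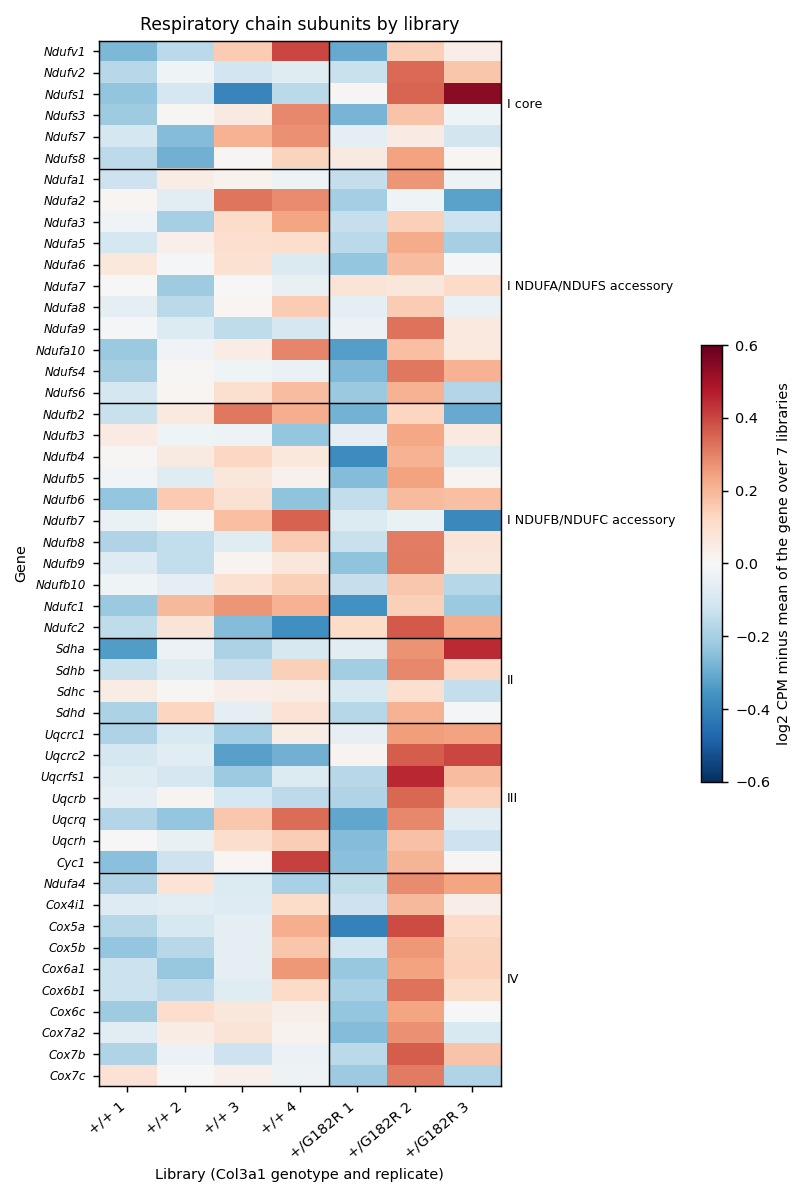
Each row is a subunit and each column a library, and colour gives the log2 CPM of the gene minus its mean over the 7 libraries. The column of Col3a1+/G182R replicate 2 is red for nearly all genes (47 of 49 above their mean) and that of Col3a1+/G182R replicate 1 is blue for nearly all (5 of 49), while Col3a1+/+ replicates 2 to 4 and Col3a1+/G182R replicate 3 are mixed (18 to 32 of 49).

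Markers of fat were uneven between libraries as well. By the paper's methods on tissue collection, the part of the thoracic aorta kept frozen had been cleared of fat. The 10 markers of brown fat summed to 846, 924, 924 and 1685 TPM in Col3a1+/+, against 864, 1654 and 1329 TPM in Col3a1+/G182R. The 3 libraries with the highest sums were the 3 with the highest sums of respiratory chain subunits. Ucp1, the uncoupling protein that defines brown fat, was at 209 to 429 TPM in Col3a1+/+ and 221 to 361 TPM in Col3a1+/G182R. Zic1 was the brown fat marker at or near 0, with at most 0.06 TPM. Of the 9 brown fat markers tested 6 were measured higher in Col3a1+/G182R and none was called by edgeR. DESeq2 called 1 of them lower (all genes 2.61%), namely Elovl3, a fatty acid elongase (log2 fold change -1.01). The 10 markers of white fat summed to 2557, 2445, 3295 and 5111 TPM in Col3a1+/+, against 3076, 5505 and 5875 TPM in Col3a1+/G182R. The same 3 libraries were thus highest for white fat as for brown fat. None of the 10 white fat markers was at 0, and all 10 were measured higher in Col3a1+/G182R. The smooth muscle markers were lowest, at 24264 TPM, in Col3a1+/+ replicate 4, where brown fat markers were highest, and were at 31954 TPM in Col3a1+/G182R replicate 2, whose brown fat sum was nearly as high. The part of fat in the level of the subunits was not tested. In whole tissue, more cells of a type and more RNA per cell cannot be told apart. The libraries fell into groups of high and low values, so no correlation is given.

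**Figure D3:**
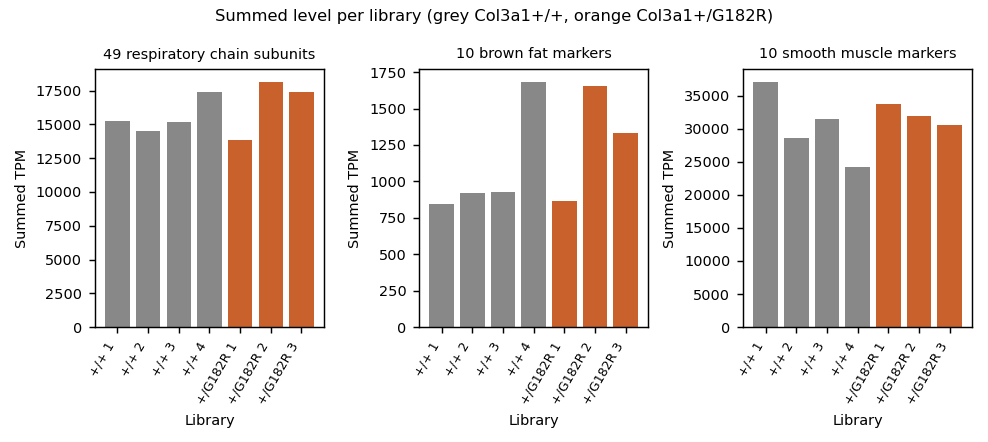
Summed TPM per library of the 49 subunits (left), the 10 brown fat markers (middle) and the 10 smooth muscle markers (right), with Col3a1+/+ in grey and Col3a1+/G182R in orange. Col3a1+/+ replicate 4 and Col3a1+/G182R replicates 2 and 3 hold the 3 tallest bars of both the left and the middle panel. The brown fat markers include the complex IV isoforms Cox8b and Cox7a1.

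The genotypes were compared gene by gene with edgeR's quasi-likelihood test over all 15688 genes. No subunit had an adjusted p under 0.05, and 0.0382% of all genes had (6 genes). The adjusted p of the 49 subunits ran from 0.158 to 0.976. Log2 fold changes of Col3a1+/G182R over Col3a1+/+ ran from -0.32 for Ndufa2 to 0.53 for Ndufs1, with standard errors of 0.108 to 0.187, and 42 of the 49 were within 1.2-fold, as were 50.2% of all genes. The median was 0.06 (all genes 0.01), with 29 subunits measured higher and 20 lower (59.2% higher, against 50.7% of all genes).

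At an unadjusted p under 0.05 edgeR held 4 subunits higher (8.16%; all genes 9.57%), which were Ndufs1, Ndufc2, Sdha and Uqcrc2, and 1 lower (2.04%; all genes 10.8%), which was Ndufa2. DESeq2, which the study used, called Ndufs1 and Uqcrc2 higher (4.08%; all genes 2%) and no subunit lower (all genes 2.61%). CPM values did not overlap between genotypes for 4 subunits higher (8.16%; all genes 10.1%), namely Ndufs1, Ndufa7, Ndufc2 and Uqcrc2, and for 0 lower (all genes 10.8%). The shares in the higher direction were thus near those of all genes, and fewer subunits were in the lower direction.

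Single libraries moved these summaries. Without Col3a1+/G182R replicate 2 the median of the 49 log2 fold changes turned to -0.06 and 20 genes were measured higher. The genotypes then did not overlap for 4 of the 49 in the higher direction, a smaller share than over all genes (12.4%). In the lower direction they did not overlap for 11 of the 49, a larger share than over all genes (13.7%). Without Col3a1+/G182R replicate 1 the median was 0.13 and 37 genes were measured higher. The genotypes then did not overlap for 15 of the 49 in the higher direction, a larger share than over all genes (15.1%). In the lower direction this held for 0 of the 49 (all genes 17.5%). Of the 49 genes 21 had a log2 fold change that took the other sign under at least 1 of the settings and left-out libraries tried, and 28 did not.

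**Figure D4:**
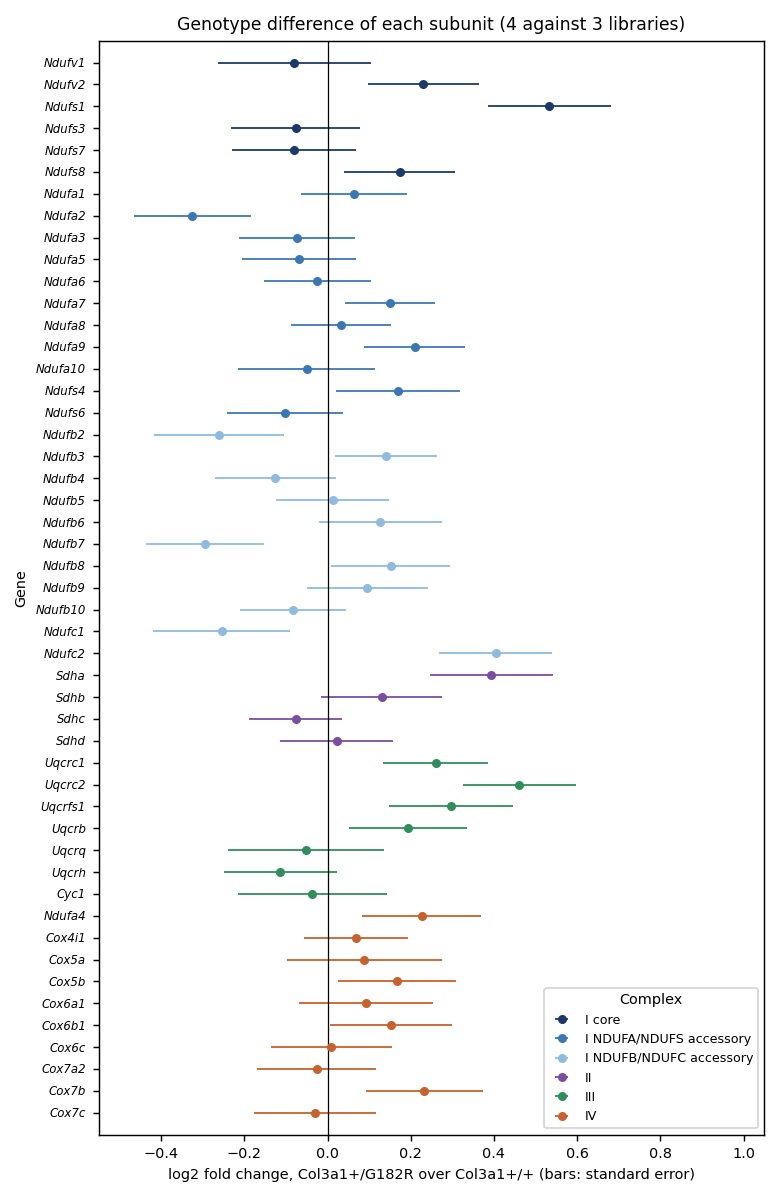
Log2 fold change of each subunit in Col3a1+/G182R over Col3a1+/+ from edgeR, with bars for the standard error, coloured by complex. The values lie between -0.32 and 0.53, and none passed the adjusted threshold of 0.05.

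Among the 6 core subunits of complex I, Ndufs1 had the largest difference in CPM, which was also the largest of all 49 genes on that scale. Its protein carries iron-sulfur clusters of the arm that takes electrons from NADH. Ndufs1 CPM were 83.2, 91.4, 74.3 and 87.6 in Col3a1+/+, against 98.2, 125 and 142 in Col3a1+/G182R. Every Col3a1+/G182R value was above every Col3a1+/+ value. The log2 fold change was 0.53 (SE 0.147), with an adjusted p of 0.158 by edgeR, 0.0329 by DESeq2 and 0.0477 by limma with library quality weights. Its mean transcript length, which RSEM estimates from the mix of transcripts in each library, was 2319, 2113, 1979 and 1577 bases in Col3a1+/+, against 2348, 2339 and 2377 bases in Col3a1+/G182R. With effective length as an offset the log2 fold change was 0.25 (edgeR adjusted p = 0.456).

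The other core subunits had log2 fold changes between -0.08 and 0.23 without a correction for length. Ndufv2, an iron-sulfur protein next to the NADH site, was the highest of these at 0.23 (SE 0.133), and its 4 Col3a1+/+ values of 120 to 133 CPM overlapped those of 123 to 170 CPM in Col3a1+/G182R. Ndufv1, which binds NADH and the flavin, had -0.08 (SE 0.183), and Ndufs3, of the ubiquinone module, had -0.08 (SE 0.155). With effective length as an offset these became -0.39 for Ndufv1 and -0.35 for Ndufs3 (edgeR adjusted p = 0.390 and 0.381), and on TPM they were -0.28 and -0.27. Ndufs8, an iron-sulfur protein near the site of ubiquinone, had 0.17 (SE 0.133). Ndufs7, the iron-sulfur protein that hands electrons to ubiquinone, was lowest. Its CPM were 48.2, 43.3, 59.9 and 62.8 in Col3a1+/+ and between 48.0 and 53.7 in the Col3a1+/G182R libraries, and its log2 fold change was -0.08 (SE 0.149).

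The 11 accessory subunits of the NDUFA and NDUFS series had a median log2 fold change of -0.02, with 5 measured higher, and the 11 of the NDUFB and NDUFC series a median of 0.01, with 6 higher. Without Col3a1+/G182R replicate 2 these medians were -0.13 and -0.12, and without replicate 1 they were 0.06 and 0.12. The first group sits mostly in or near the matrix arm and the second in the membrane arm. Ndufa2, an accessory subunit of the NADH module, had the lowest fold change of all 49 in CPM, although not with effective length as an offset, where Ndufv1 and Ndufs3 were lower. Its CPM were 115, 109, 143 and 139 in Col3a1+/+, against 99.4, 112 and 91.4 in Col3a1+/G182R. Col3a1+/G182R replicate 2 was above the lowest Col3a1+/+ library, so the genotypes overlapped. The log2 fold change was -0.32 (SE 0.142, edgeR adjusted p = 0.236), and without each library in turn it stayed between -0.41 and -0.27. Ndufa9, which helps to hold the matrix arm to the membrane arm, was the highest of the NDUFA and NDUFS series. Its CPM were 76.1, 72.2, 68.8 and 71.3 in Col3a1+/+, against 74.6, 95.8 and 79.7 in Col3a1+/G182R. Only replicate 2 lay clearly above the rest, and the log2 fold change was 0.21 (SE 0.122, edgeR adjusted p = 0.342).

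Ndufa7 showed the tightest values. They were 73.0, 63.0, 73.0 and 70.8 CPM in Col3a1+/+, against 77.2, 76.5 and 79.2 CPM in Col3a1+/G182R, with no overlap and a log2 fold change of 0.15 (SE 0.108, edgeR adjusted p = 0.439). Ndufs4 and Ndufs6, accessory subunits needed to join the NADH module to the rest of complex I, went in different directions, with log2 fold changes of 0.17 (SE 0.149) and -0.10 (SE 0.140) that were near the size of their errors.

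In the membrane arm, the extremes were Ndufc2 and Ndufb7. Ndufc2 CPM were 31.6, 37.2, 29.4 and 27.3 in Col3a1+/+, against 38.0, 45.4 and 41.1 in Col3a1+/G182R. The genotypes did not overlap, although Col3a1+/+ replicate 2 came within 1 CPM of Col3a1+/G182R replicate 1. The log2 fold change was 0.40 (SE 0.137, edgeR adjusted p = 0.176), and it was 0.33 to 0.49 without each library in turn. With effective length as an offset it was 0.54 (edgeR adjusted p = 0.137) and on TPM 0.59. On both of those scales it was the largest of all the subunits. Ndufc1, which lies beside Ndufc2 in the complex, was measured lower, at 75.1 ± 10.8 CPM in Col3a1+/+ (SD, n = 4) and 62.9 ± 11.7 CPM in Col3a1+/G182R (SD, n = 3), with -0.25 (SE 0.165) as its log2 fold change. Ndufb7 CPM were 74.2, 76.7, 86.5 and 97.4 in Col3a1+/+, against 72.1, 74.2 and 58.3 in Col3a1+/G182R. The log2 fold change was -0.29 (SE 0.142, edgeR adjusted p = 0.269), with Col3a1+/G182R replicate 3 lowest.

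The 4 subunits of complex II are the flavoprotein Sdha, the iron-sulfur protein Sdhb and the membrane anchors Sdhc and Sdhd. Sdha CPM were 219, 270, 242 and 259 in Col3a1+/+, against 264, 333 and 377 in Col3a1+/G182R. Col3a1+/+ replicate 2 was above Col3a1+/G182R replicate 1, so the genotypes overlapped, and the log2 fold change was 0.39 (SE 0.148, edgeR adjusted p = 0.194). Sdhb and Sdhd had 0.13 (SE 0.145) and 0.02 (SE 0.136).

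Sdhc was even between mice in CPM, at 137, 134, 137 and 137 in Col3a1+/+, against 125, 143 and 121 in Col3a1+/G182R (log2 fold change -0.08, SE 0.112). Its estimated mean transcript length was 1351 to 1824 bases in Col3a1+/+ and 1112 to 1326 bases in Col3a1+/G182R, without overlap. On the scale of TPM, and with effective length as an offset, the sign of its difference was therefore the opposite, with log2 fold changes of 0.41 and 0.36.

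Complex III had a median log2 fold change of 0.19 over 7 genes, with 4 measured higher. The median was 0.07 without Col3a1+/G182R replicate 2 and 0.31 without replicate 1. The core proteins Uqcrc1 and Uqcrc2 form the part of complex III that faces the matrix. Uqcrc2 CPM were 146, 150, 125 and 128 in Col3a1+/+, against 158, 202 and 207 in Col3a1+/G182R. All Col3a1+/G182R values were above all Col3a1+/+ values. The log2 fold change was 0.46 (SE 0.136), with an adjusted p of 0.167 by edgeR and 0.0401 by DESeq2, and 0.38 to 0.56 without each library in turn. Uqcrc1 had 0.26 (SE 0.127) and Uqcrfs1, the Rieske iron-sulfur protein, 0.30 (SE 0.149). The cytochrome c1 gene Cyc1 had -0.04 (SE 0.179), and its highest value, 161 CPM, was in Col3a1+/+ replicate 4. Uqcrh, the hinge protein, had the lowest log2 fold change of the complex. Its CPM were 304, 294, 326 and 336 in Col3a1+/+, against 253, 342 and 278 in Col3a1+/G182R, so that the knock-in libraries held both the lowest and the highest value, and the log2 fold change was -0.11 (SE 0.136).

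In complex IV, 8 of 10 genes were measured higher, with a median log2 fold change of 0.09 and a range of -0.03 to 0.23. The median was -0.01 without Col3a1+/G182R replicate 2, 0.23 without replicate 1 and 0.17 without Col3a1+/+ replicate 4. The standard errors of these 10 genes were of similar size, and no gene of complex IV had an unadjusted p under 0.05. Cox7b was highest. Its CPM were 158, 174, 164 and 174 in Col3a1+/+, against 159, 230 and 201 in Col3a1+/G182R. Col3a1+/G182R replicate 1 lay inside the narrow Col3a1+/+ range and the other 2 above it, and the log2 fold change was 0.23 (SE 0.141, edgeR adjusted p = 0.359). Cox7c was lowest, with CPM of 152, 143, 146 and 140 in Col3a1+/+, against 123, 177 and 126 in Col3a1+/G182R and -0.03 (SE 0.148) as its log2 fold change. Cox4i1 and Cox5a, subunits around the catalytic core that is made in the mitochondrion, had 0.07 (SE 0.125) and 0.09 (SE 0.186). Cox5a spanned 91.8 to 160 CPM in the 3 Col3a1+/G182R libraries and 108 to 141 CPM in the 4 Col3a1+/+ libraries.

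The spread between mice differed by genotype. The median coefficient of variation of TPM over the 49 genes was 10.7% in Col3a1+/+ and 15.3% in Col3a1+/G182R. In the 1850 tested genes at least as abundant as the lowest subunit it went the other way, with 14.7% in Col3a1+/+ and 9.10% in Col3a1+/G182R. This difference was not tested.

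Fold changes differed with the length of the transcripts. The mean transcript length of the 49 genes had a median of 654 bases (357 to 2229), against 2315 bases for all genes tested. The 28 subunits of up to 700 bases had a median log2 fold change of -0.01 with 14 measured higher, the 9 of 700 to 1000 bases 0.10 with 7 higher, and the 12 longer ones 0.17 with 8 higher. All genes tested went the same way, with medians of -0.15, -0.11 and 0.03 in these classes. The Spearman correlation of log2 fold change with length was 0.34 over the 49 subunits and 0.25 over all 15688 genes, which share the same 7 libraries. In each class the median of the subunits was above that of all genes.

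The length of the sequenced fragments moved with genotype as well. The difference between length and effective length, which follows the mean fragment length of a library, was 114 to 120 bases in Col3a1+/+ and 121 to 131 bases in Col3a1+/G182R (exact permutation test over the 7 libraries, two-sided, p = 0.0286, the smallest p that 4 against 3 libraries allow; adjusted over 2 library properties, 0.0571). Genotype and fragment length cannot be told apart in these libraries. With effective length as an offset the median log2 fold change was 0.10, 32 subunits were measured higher and none was called by edgeR, and the 3 length classes had medians of 0.01, 0.11 and 0.23.

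**Figure D5:**
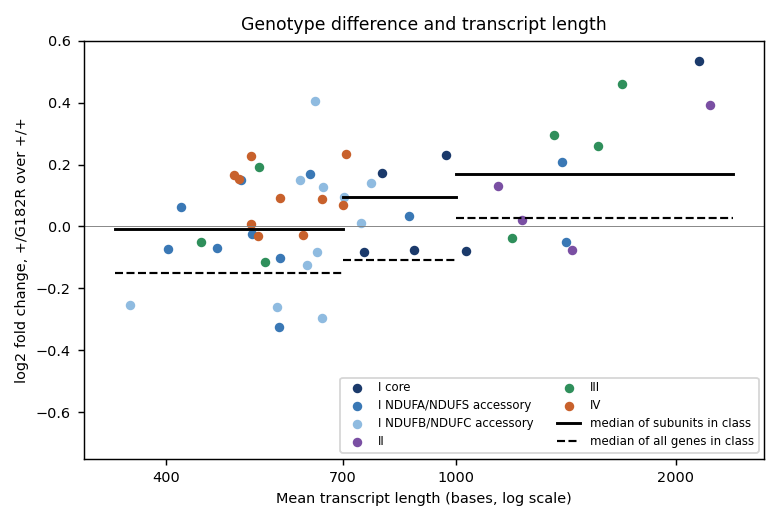
Log2 fold change of each subunit in Col3a1+/G182R over Col3a1+/+ against its mean transcript length (log scale), coloured by complex. Solid lines are medians of the subunits in 3 length classes (-0.01, 0.10 and 0.17) and dashed lines are medians of all genes tested in the same classes (-0.15, -0.11 and 0.03).

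Several of these genes share stretches of sequence with other annotated genes. The mRNAs of respiratory chain subunits have often been copied back into the genome as pseudogenes. Where the matching genes lie was not examined. Of the 49 genes 13 had a transcript that matched another gene at 95% identity or more over at least 100 bases. For 8 of these a matching gene was a pseudogene. Cox7c matched 4 pseudogenes and Uqcrb 3. Counts that were not whole, which RSEM gives where it divides reads between genes, occurred in every library for 12 genes, and 33 genes had whole counts in all libraries. Among the 12 were 4 genes with no such match, Ndufs1, Uqcrc2, Cox5a and Ndufb6. Ndufc1 matched 11 other genes and had whole counts throughout. The values of the genes with shared reads are uncertain to that extent.

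The genes that hold the printed motifs had small genotype differences of both signs. The 5 with the NRF1 letters had log2 fold changes of -0.02 to 0.26 (median 0.09) with 4 measured higher, and the 7 with the YY1 letters of -0.25 to 0.21 (median -0.07) with 3 higher. All genes tested had a median of 0.01.

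Other genes of oxidative metabolism were read from lists, and none of them was called by edgeR. The 11 further nuclear subunits of complexes I, III and IV outside the 49 had a median log2 fold change of -0.09 with 3 measured higher. Of these, Ndufv3, an accessory subunit beside the NADH site, had -0.30 (SE 0.135, edgeR adjusted p = 0.251) and Ndufa11, of the membrane arm, -0.22 (SE 0.146, edgeR adjusted p = 0.392). Of the 16 genes tested of ATP synthase and its inhibitor protein 6 were higher (median -0.07). Atp5f1, of the peripheral stalk, was at 0.38 (SE 0.148, edgeR adjusted p = 0.206) and Atp5e, of the rotor, at -0.31 (SE 0.146, edgeR adjusted p = 0.261).

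Of the complex IV isoforms that are restricted to certain tissues, Cox8b and Cox7a1 are also on the list of brown fat markers. Cox8b, which is expressed in brown fat and heart, was at 322, 354, 343 and 651 TPM in Col3a1+/+, against 350.1, 701 and 566 TPM in Col3a1+/G182R. Cox7a1, expressed in heart, muscle and brown fat, was at 129, 163, 134 and 272 TPM and at 137, 290.5 and 180.4 TPM. The same libraries were thus high for both, and their log2 fold changes of 0.29 (SE 0.289) and 0.16 (SE 0.313) had large errors. Cox6b2, whose product is best known from testis, had -0.55 (SE 0.256, edgeR adjusted p = 0.256). Its genotypes did not overlap in CPM, narrowly (lowest Col3a1+/+ 3.69, highest Col3a1+/G182R 3.68), and overlapped on TPM. Of the 5 isoforms tested 4 were measured higher. Cox6a2, the isoform of heart and muscle, was the one not tested. It was at 3.02 and 2.80 TPM in Col3a1+/+ replicates 1 and 2 and at most 0.28 TPM in the other 5 libraries.

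The tricarboxylic acid cycle feeds NADH and succinate to the chain. Its list also holds genes of pyruvate dehydrogenase, which feeds the cycle. This list had the highest share of genes measured higher among the 9 lists of related genes. Of its 17 genes 15 were measured higher, with a median log2 fold change of 0.26. By edgeR 6 had an unadjusted p under 0.05, all in the higher direction (9.57% of all genes). Sucla2, of succinyl-CoA synthetase, had 0.52 (SE 0.164, edgeR adjusted p = 0.170). The median was 0.21 without Col3a1+/G182R replicate 2, 0.33 without replicate 1 and 0.27 without Col3a1+/+ replicate 4. The summed TPM of the 17 genes was highest in Col3a1+/G182R replicates 2 and 3 and Col3a1+/+ replicate 4. These libraries also held most brown and white fat marker mRNA, and the part of fat in this list was not tested. Among the 14 genes of cytochrome c, coenzyme Q and the electron transfer flavoproteins 6 were measured higher (median -0.07). Etfa, which brings electrons from fatty acid oxidation to the chain, had 0.47 (SE 0.136, edgeR adjusted p = 0.164, DESeq2 adjusted p = 0.0372), and Coq2, of coenzyme Q synthesis, had -0.38 (SE 0.133, edgeR adjusted p = 0.181).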

How the data were processed

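RNA of 7 thoracic aortas (TruSeq Stranded mRNA kit, poly-A selected) had been sequenced in pairs of 75-base reads. The submitters' processing notes name STAR 2.7.6a, RSEM 1.3.1 and GRCm38. The paper's methods differ, naming another STAR version and featureCounts, with DESeq2 and limma. The files hold RSEM output. The expected counts deposited by the authors are RSEM estimates that divide reads matching several genes. The TPM values deposited by the authors are scaled within each library, and served for levels. FPKM values deposited by the authors were not used. Lengths and effective lengths came from the same files. The annotation release is not given in the sources used here. Symbols came from GENCODE M21 (55227 of 55487 identifiers matched).

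Expected counts were rounded, filtered with filterByExpr (minimum count 10), scaled with TMM and tested two-sided with edgeR 4.0.16 in R 4.3.3, genotype being the only term, with Benjamini-Hochberg adjustment over all genes and a threshold of 0.05. Standard errors were derived from the fold change and the F statistic. The test was first run on simulated data. DESeq2 1.42.0 and limma 3.58.1 were alternatives, as were RLE factors, other count filters, effective length as an offset, log2(TPM + 1), a replicate block and leaving out each library. DESeq2 gave no adjusted p for 1524 genes. Each library was taken as 1 mouse, as the paper counts them.

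The 49 genes and all lists (6 groups by role, 9 of related genes, 11 of cell type markers) were chosen with earlier results of these data known. Every subunit may be named. Those given by library are the highest and lowest fold change of each role group, those called by any tool and the highest and lowest level, and Ndufa7 was added after its values were seen. Of other lists, up to 2 genes with the smallest p are named, except 1 gene that is not reported here, and Cox7a1, Cox6a2, Ucp1 and Zic1 were added. Atp5o matched several genes and Atp5md none, so 16 of 18 ATP synthase genes were used. Matches to other genes were found with blastn. Protein sequences were not used here.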

Additional observations from a re-analysis of the deposited data

Results flagged for a closer look

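In 7 of 76 groups of 4 Col3a1+/+ libraries examined, the highest or lowest library lay far from the other 3 by Dixon's criterion. Chance gives about 1 in 20. Groups of 3 were not examined, and the groups of genes share members.

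Ndufc1 was lowest in Col3a1+/+ replicate 1, at 59.1 CPM, with the others at 78.8 to 82.7 CPM. Sdhc was lowest in Col3a1+/+ replicate 2, at 134 CPM, in a group whose whole range was small. Cox4i1 was highest in Col3a1+/+ replicate 4, at 394 CPM. In the same library the summed TPM was highest for complex IV subunits (6833) and for the tissue-restricted complex IV isoforms (972). The same held for the list of the tricarboxylic acid cycle (2292) and for brown fat markers (1685).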

How the results depend on the processing

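The 6 genes called by edgeR became 723 with DESeq2, 546 with limma quality weights, 11 with limma-voom, 353 with no low-count filter, 0 when each library had to reach 10 counts (unadjusted p under 0.05 for 3046) and 46 with the replicate block. Leaving out each library gave 0 to 183. Called subunits were 2 with DESeq2, 1 with quality weights and 0 otherwise. Subunits whose genotypes did not overlap were 4, and 2 on TPM and 4 to 15 without each library, with 15 without Col3a1+/G182R replicate 1 and also without replicate 2. Only with all libraries and without these replicates was the share of all genes computed. The other counts thus cannot be read against it. The median log2 fold change of the subunits was -0.061 to 0.133 without each library. Ndufs7 reversed to 0.0027 on TPM and 0.015 with the block. Sdhc reversed to 0.36 with effective length and 0.41 on TPM. Cox7c reversed to 0.060 with quality weights and 0.018 on TPM, and was -0.22 to 0.053 without each library. All 21 subunits that changed sign were within 0.10 of 0 by edgeR with TMM and no offset. The cause of these moves was not tested.

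The labels give no shared batch for equal replicate numbers. Deviations from the genotype means correlated across genes at -0.0377, 0.0296 and 0.100 between libraries with the same number. Pairs with different numbers were not compared, so whether the mice were paired is not known. The replicate block changed no call of a subunit. Whether a subunit was called depended on the tool, and whole-aorta RNA does not place them in a cell type.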

Other observations

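The 13 subunits encoded by mitochondrial DNA summed to 90479 to 126837 TPM in Col3a1+/+ and 96889 to 141377 TPM in Col3a1+/G182R, above the sums of the nuclear subunits. Col3a1+/G182R replicates 1 and 2, the lowest and the highest for the nuclear subunits, were nearly equal here at 141377 and 140350 TPM. Of the 13 genes 9 were measured higher (median log2 fold change 0.10). mt-Atp8, which overlaps mt-Atp6, had 0.71 (SE 0.299, edgeR adjusted p = 0.226). mt-Co3 ran from 0.21 to 381 TPM between Col3a1+/+ libraries, so its estimate is uncertain.

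Of 14 assembly factors of complex I 7 were measured higher (median -0.07). Nubpl, which inserts iron-sulfur clusters, had 0.64 (SE 0.222, edgeR adjusted p = 0.179) and Ndufaf8 had -0.48 (SE 0.184, edgeR adjusted p = 0.197). Of 26 assembly factors of complexes II to IV 9 were higher (median -0.08), with Uqcc3 at -0.38 (SE 0.147) and Coa5 at 0.33 (SE 0.134). Of 17 regulators of mitochondrial biogenesis 11 were higher (median 0.11). Gabpa, of the ETS family, had 0.52 (SE 0.165, edgeR adjusted p = 0.170), and Polg, the mitochondrial DNA polymerase, -0.41 (SE 0.143, edgeR adjusted p = 0.179).

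Markers of other cells differed between libraries too. Cardiac muscle markers summed to 156, 103, 47.9 and 48.0 TPM in Col3a1+/+ and 39.9, 36.3 and 35.7 TPM in Col3a1+/G182R, without overlap, and skeletal muscle markers to 18.5 to 33.6 and 10.2 to 14.6 TPM. DESeq2 called 3 of the 6 cardiac markers tested lower (all genes 2.61%), namely Myh6, Myl4 and Tnni3. Macrophage markers summed to 141 to 235 and 196 to 547 TPM, and all 10 were measured higher (median log2 fold change 0.74). Of these 7 had an unadjusted p under 0.05 by edgeR in the higher direction (all genes 9.57%), and DESeq2 called 1 higher, Lyz2 (all genes 2%). Adventitial fibroblast markers summed to 1099 to 2559 and 1953 to 2626 TPM. Of these 10 markers 9 were measured higher, 3 of them with an unadjusted p under 0.05 by edgeR, and DESeq2 called 1 higher. DESeq2 also called 1 of the 10 smooth muscle markers higher, in a list where 3 were measured higher and 7 lower. Endothelial markers summed to 205 to 553 and 328 to 467 TPM. Red blood cell markers summed to 410.5 to 1058 and 697 to 1900.4 TPM, nerve and Schwann cell markers to 212 to 267 and 211 to 240.4 TPM, and bone and cartilage markers to 30.2 to 35.5 and 20.5 to 28.2 TPM. Their part in the results was not tested.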
